A study of Mus musculus with 12 samples.

Results

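The genes described here are 33 mouse genes of sterol synthesis, uptake and efflux, named by symbol and matched to Ensembl gene IDs of the count files, out of 55335 gene IDs in those files. All 33 passed the filter on low counts, which left 16597 genes to test. By role they comprise 19 synthesis enzymes, 5 regulators of the sterol-sensing factor SREBP, 4 genes of uptake and intracellular transport, 1 esterification enzyme, and 4 genes of the oxysterol receptors LXR and of efflux. The study sequenced RNA from 12 cultures of fibro-adipogenic progenitors (FAPs), the mesenchymal cells between muscle fibres that can form fibroblasts and adipocytes. The cells were sorted from mouse limb muscle as live cells negative for lineage markers and Vcam and positive for Sca1, and cultured in alpha-MEM and 20% fetal bovine serum. There were 4 groups of 3 libraries. Smn1OE_K186R cells received 1 µM 4-hydroxytamoxifen (4-OHT), given to delete Bap1, together with a vector carrying human SMN with the K186R change. Smn1OE cells had the same 4-OHT and a vector with unchanged human SMN. Bap1KO cells received 4-OHT and no SMN vector. WT cells received ethanol in place of 4-OHT. An exposure time of 24 hours is recorded for every library. Bap1 encodes a nuclear deubiquitinase, and SMN is the protein needed to assemble splicing ribonucleoproteins.

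The groups limit the comparisons in several ways. No group carried an empty vector, received 4-OHT without Bap1 deletion or carried SMN without 4-OHT, so the effects of vector, 4-OHT and deletion cannot be told apart. The treatment text names Rosa-CreER as the driver, whereas the source label names Prrx1Cre. The labels do not say whether replicates came from separate animals, so p-values measure the spread between these libraries, which may be technical. Total counts were 52.0 to 66.0 M reads per library in Smn1OE_K186R, 51.2 to 65.4 M in Smn1OE, 57.6 to 67.8 M in Bap1KO and 67.3 to 68.2 M in WT. Bap1 had 41.7 to 47.3 reads per 1e6 reads (CPM, scaled by TMM) in Smn1OE_K186R, 47.5 to 50 CPM in Smn1OE, 39.3 to 42.3 CPM in Bap1KO and 49.7 to 52.0 CPM in WT. Smn1OE thus overlapped WT, Smn1OE_K186R overlapped Bap1KO, most Bap1 transcripts were still counted in every group given 4-OHT, and these whole-gene counts do not show whether they carry the deleted exons. The SMN groups shared no culture media batch with the others. They also differed in sex-linked transcripts, with Xist at most 0.113 CPM in the SMN groups, against 197 to 305 CPM in Bap1KO and 200 to 264 CPM in WT. Vector, batch and sex of the cells therefore cannot be told apart wherever an SMN group is set against Bap1KO or WT. All 8 FAP markers exceeded 1 CPM in every WT library, and 7 did so in every library of each other group. They summed to 4190 to 5860 CPM in Smn1OE_K186R, 3530 to 5380 CPM in Smn1OE, 9040 to 15900 CPM in Bap1KO and 14200 to 20700 CPM in WT. Col1a1 weighs heavily in these sums, with a mean of 12700 CPM in WT. Mean Cd34 was higher in Smn1OE_K186R (60.9 CPM) and Smn1OE (65.3 CPM) than in WT (44.1 CPM), whereas every other FAP marker had a lower mean there. Markers of myogenic, endothelial and Schwann cells each summed to at most 14 CPM in every library, leukocyte markers to 11.4 to 27.1 CPM, adipocyte markers to 9.77 to 33 CPM with Lep at 0, and pericyte markers to 54.0 to 89.5 CPM. In bulk RNA, fewer cells of a type and less RNA per cell cannot be told apart.

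Cells obtain cholesterol by making it from acetyl-CoA through mevalonate, squalene and lanosterol, or by taking up lipoproteins. When membranes of the endoplasmic reticulum are low in sterol, the escort protein SCAP carries SREBP to the Golgi, where it is cut free to enter the nucleus and switch on synthesis genes; INSIG proteins hold SCAP back when sterol is plentiful. LXRs, which bind oxysterols, switch on efflux transporters such as ABCA1 and ABCG1. Synthesis and efflux are thus known to be regulated in opposite directions by sterol supply.

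Promoter windows show what the synthesis genes share in sequence besides their function. RefSeq start-site windows (GRCm38.p6, 250 bases before to 50 bases after the start) were found for 27 of the 33 genes. The 5 windows printed are 4 from genes of the SREBP programme and 1 from an efflux gene for contrast; they are written 5′ to 3′ on the gene's strand, and capitals mark CCAAT, read as ATTGG from the other strand, and the sterol regulatory element TCACNCCAC. They lie at chr13:119690101-119690400 on the plus strand (Hmgcs1), chr5:114444019-114444318 on the plus strand (Mvk), chr8:122443373-122443672 on the minus strand (Mvd), chr5:28071162-28071461 on the plus strand (Insig1) and chr4:53159846-53160145 on the minus strand (Abca1).
Hmgcs1: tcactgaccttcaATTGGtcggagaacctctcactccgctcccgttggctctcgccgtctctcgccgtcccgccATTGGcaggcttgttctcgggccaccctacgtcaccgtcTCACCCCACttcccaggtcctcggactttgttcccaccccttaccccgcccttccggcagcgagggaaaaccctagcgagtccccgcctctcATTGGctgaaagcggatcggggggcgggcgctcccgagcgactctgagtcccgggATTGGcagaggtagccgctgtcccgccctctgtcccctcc
Mvk: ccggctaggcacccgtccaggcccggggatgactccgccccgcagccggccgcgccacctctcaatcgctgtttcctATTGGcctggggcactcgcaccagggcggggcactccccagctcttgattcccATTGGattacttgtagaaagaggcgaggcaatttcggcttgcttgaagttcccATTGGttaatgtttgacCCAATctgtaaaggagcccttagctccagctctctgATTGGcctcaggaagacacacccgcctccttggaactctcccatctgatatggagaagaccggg
Mvd: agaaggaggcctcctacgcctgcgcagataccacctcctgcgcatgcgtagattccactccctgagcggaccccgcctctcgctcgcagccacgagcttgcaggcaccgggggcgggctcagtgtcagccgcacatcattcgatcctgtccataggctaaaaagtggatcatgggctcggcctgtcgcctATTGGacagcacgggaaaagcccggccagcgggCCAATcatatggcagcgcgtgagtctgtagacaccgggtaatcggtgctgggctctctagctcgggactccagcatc
Insig1: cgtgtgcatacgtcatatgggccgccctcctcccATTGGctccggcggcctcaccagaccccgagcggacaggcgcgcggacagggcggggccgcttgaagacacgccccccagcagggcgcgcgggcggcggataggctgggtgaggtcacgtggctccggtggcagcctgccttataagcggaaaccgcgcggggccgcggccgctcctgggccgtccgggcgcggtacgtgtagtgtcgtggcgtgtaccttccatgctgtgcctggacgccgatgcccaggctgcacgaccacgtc
Abca1: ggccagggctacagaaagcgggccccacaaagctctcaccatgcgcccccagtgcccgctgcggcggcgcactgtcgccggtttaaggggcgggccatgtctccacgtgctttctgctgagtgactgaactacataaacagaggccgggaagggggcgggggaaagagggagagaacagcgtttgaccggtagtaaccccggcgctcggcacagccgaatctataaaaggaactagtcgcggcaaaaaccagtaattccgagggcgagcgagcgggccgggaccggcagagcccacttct

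Hmgcs1, the enzyme that makes HMG-CoA, was the only 1 of the 27 genes whose window held TCACNCCAC on either strand, as TCACCCCAC starting 137 bases before the start site. The element stood in 1.24% of all 32851 windows. CCAAT, the letters bound by NF-Y, a factor known to act beside SREBP, stood in a window of 15 of 16 synthesis enzymes and of 7 of 11 other genes, against 42.5% of all tested genes in the table. GGGCGG, read as CCGCCC from the other strand and bound by Sp1, stood in 14 of 16 synthesis enzymes and 9 of 11 others, against 66.2% of tested genes. The LXR-type direct repeat, both half-sites of which were searched exactly and on both strands, was in no window of the 27 genes and in 0.0152% of all windows. These are matches of letters, not binding sites. Copies of the sterol regulatory element or of the LXR-type repeat with any other changed letter were not counted, also in the printed windows. Sequence outside the windows was not searched. The lack of an exact match therefore does not show that a gene lacks a site for SREBP or LXR.

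Levels per length differed widely between the genes. In WT, Npc2, a lysosomal carrier of cholesterol, had the highest level at 101.0 ± 2.31 CPM per kilobase of exon (SD, n = 3). Nr1h2, which encodes LXR beta, followed at 20.1 ± 1.59 CPM per kilobase, and Cyp51, the lanosterol demethylase, had 19.2 ± 3.57 CPM per kilobase; these neighbours lay within each other's spread. Nr1h3, which encodes LXR alpha, had 1.46 ± 0.45 CPM per kilobase, and Abca1 had 1.58 ± 0.423 CPM per kilobase, again within their spread. Abcg1 was lowest, at 0.316 ± 0.089 CPM per kilobase. FAPs thus carried much more Nr1h2 than Nr1h3 transcript per length.

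**Figure D1:**
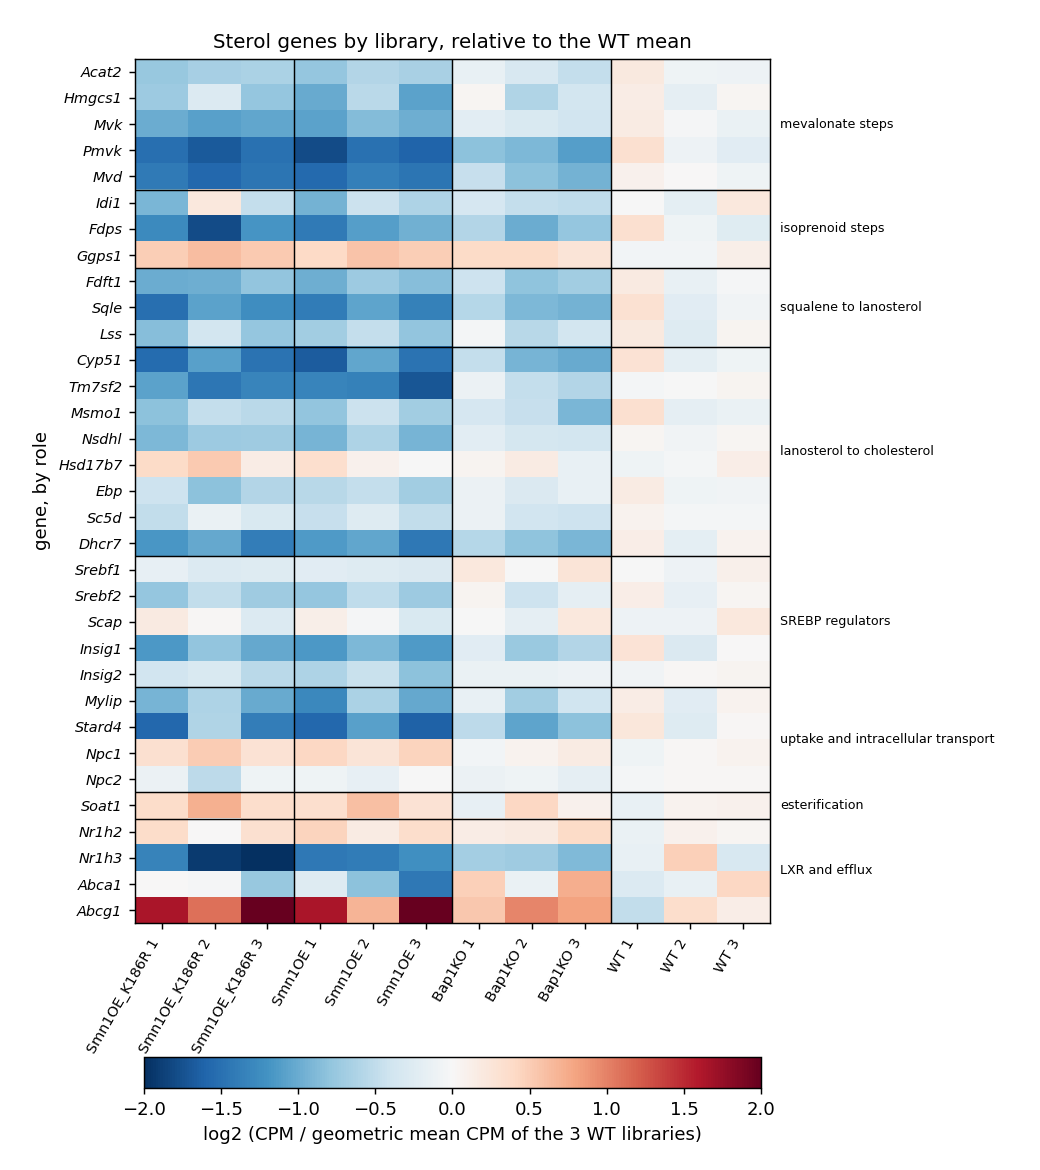
Heat map of all 33 genes (down, by role) in the 12 libraries (across, by group); colour gives log2 of CPM over the geometric mean of the 3 WT libraries. Most synthesis enzymes are blue in Bap1KO and darker blue in both SMN groups, whereas Ggps1 and Abcg1 are red there.

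The comparison of Bap1KO with WT asks how sterol genes differed between cells given 4-OHT to delete Bap1 and cells given ethanol. Many synthesis enzymes were lower in Bap1KO, and efflux transporters were called higher only with the culture media batch in the fit. Of the 19 synthesis enzymes, 7 fell and 1 rose by edgeR's quasi-likelihood test at an adjusted p under 0.05, and no other gene of the 33 passed. That is 8 of 33 genes, against 9.78% of all genes tested; 7 of 33 passed in the lower direction, against 6.37%, and 1 in the higher, against 3.42%. The median log2 fold change was −0.38 for synthesis enzymes and 0.30 for the 4 LXR and efflux genes, against 0.00 for all genes. All 3 Bap1KO libraries lay below all 3 WT libraries for 15 of the 19 enzymes, against 17.8% of all genes.

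In the mevalonate steps, Pmvk, the phosphomevalonate kinase, had 8.67, 8.20 and 7.13 CPM in Bap1KO libraries 1 to 3, against 19.1, 14.3 and 13.1 CPM in WT libraries 1 to 3. Every Bap1KO library lay below every WT library, with a log2 fold change of −0.96 ± 0.155 (SE; adjusted p = 0.00359, edgeR). Mvd, which decarboxylates mevalonate diphosphate, had 18.1, 14.1 and 12.9 CPM in Bap1KO, against 26.4, 25.2 and 23.4 CPM in WT. It fell by 0.73 on the log2 scale (adjusted p = 0.00446, edgeR), and the groups did not overlap. The other 3 mevalonate enzymes, Acat2, Hmgcs1 and Mvk, had log2 fold changes of −0.31, −0.30 and −0.30 and did not pass.

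In the isoprenoid steps the enzymes did not move together. Fdps, which makes farnesyl diphosphate, had 4.63, 3.48 and 4.03 CPM in Bap1KO, against 8.61, 6.55 and 5.88 CPM in WT, a log2 fold change of −0.79 ± 0.211 (adjusted p = 0.0339, edgeR). Ggps1, which diverts farnesyl diphosphate to geranylgeranyl diphosphate for protein prenylation, was the enzyme that rose. It had 49.2, 49.0 and 45.3 CPM in Bap1KO, against 36.2, 36.4 and 40.7 CPM in WT, a log2 fold change of 0.34 ± 0.0763 (adjusted p = 0.0164, edgeR). Neither gene's groups overlapped. Exons of Ggps1 overlap Arid4b on the opposite strand, and the strand setting of the counting is not given in the sources used here. Reads of the shared stretch may therefore be wrongly assigned or missing from the Ggps1 count. Without Bap1KO library 2, WT library 1 or WT library 2 in turn the calls of both genes were lost, as was that of Fdps without Bap1KO library 3, with adjusted p up to 0.151 for Fdps and 0.0761 for Ggps1.

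From squalene onwards, Fdft1, the squalene synthase, had 50.2, 38.3 and 41.0 CPM in Bap1KO, against 75, 60.3 and 65.2 CPM in WT, a log2 fold change of −0.63 ± 0.115 (adjusted p = 0.00631, edgeR). Sqle, the squalene epoxidase and a rate-controlling enzyme, had 44.1, 35.1 and 33.9 CPM in Bap1KO, against 80.9, 56.0 and 62.4 CPM in WT. It fell by 0.82 on the log2 scale (adjusted p = 0.00914, edgeR), with no overlap; without Bap1KO library 3 the adjusted p was 0.0504. Cyp51 had 60, 43.9 and 41.7 CPM in Bap1KO, against 102, 72.6 and 78.7 CPM in WT, a log2 fold change of −0.80 ± 0.200 (adjusted p = 0.0305, edgeR). In fits without the culture media batch, the Cyp51 call was lost without Bap1KO library 2 or 3 or WT library 1 or 3, with adjusted p up to 0.115. Dhcr7, which reduces 7-dehydrocholesterol to cholesterol, had 12.7, 10.8 and 10.0 CPM in Bap1KO, against 20.6, 16.4 and 19.9 CPM in WT, and fell by 0.77 (adjusted p = 0.00767, edgeR). Fdft1 shares exon sequence with Ctsb, and Cyp51 with Akap9, on opposite strands. Over all libraries Ctsb had 809504 reads, against 34714 for Fdft1. The other 8 enzymes, Idi1, Lss, Tm7sf2, Msmo1, Nsdhl, Hsd17b7, Ebp and Sc5d, did not pass and had log2 fold changes of −0.56 (Msmo1) to 0.03 (Hsd17b7). Pmvk, Mvd, Fdft1 and Dhcr7 stayed called whichever library was left out.

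Among the 5 SREBP regulators none passed in edgeR, where 1 had an unadjusted p under 0.05; DESeq2 called 1. Insig1, itself an SREBP target, had 36.3, 25.2 and 28.3 CPM in Bap1KO, against 51.3, 34.6 and 42.6 CPM in WT. The groups overlapped because Bap1KO library 1, the highest of its group, exceeded WT library 2, the lowest of its group, and the log2 fold change of −0.52 had an adjusted p of 0.0618 (edgeR). Insig2 had 42.3, 42.2 and 43.2 CPM in Bap1KO and 44.1, 47.0 and 48.0 CPM in WT. Srebf2, which encodes the SREBP of sterol synthesis, had 119, 85.8 and 101 CPM in Bap1KO and 125, 102 and 117 CPM in WT. Srebf1, which encodes the SREBP of fatty acid synthesis, had 88.0, 75.7 and 90.6 CPM in Bap1KO and 75.5, 71.0 and 81.5 CPM in WT. Scap had 84.1, 74.6 and 97.5 CPM in Bap1KO and 78.5, 78.7 and 97.5 CPM in WT. These 4 differed by −0.17 to 0.16 on the log2 scale.

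Uptake and transport genes did not share a direction. Stard4, a soluble sterol carrier and SREBP target, had 10.8, 7.50 and 8.78 CPM in Bap1KO, against 18.2, 13 and 15.8 CPM in WT. Its groups did not overlap, but its log2 fold change of −0.80 ± 0.247 missed the threshold (adjusted p = 0.0605, edgeR). Mylip, an E3 ubiquitin ligase that sends lipoprotein receptors to degradation and is an LXR target, had 10.6, 7.23 and 8.97 CPM in Bap1KO and 13, 10.1 and 12.4 CPM in WT. The lysosomal exporters differed little. Npc1 had 36.8, 40.4 and 43.2 CPM in Bap1KO and 36.2, 38.9 and 40.3 CPM in WT, and Npc2 had 508, 517 and 484 CPM in Bap1KO and 537, 557 and 559 CPM in WT. Every Bap1KO library of Npc2 lay below every WT library, as for 17.8% of all genes. Npc2 was not called with or without the culture media batch in the fit. Soat1, which esterifies cholesterol for storage, had 142, 212 and 170 CPM in Bap1KO and 144, 167 and 169 CPM in WT.

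Efflux transporters had higher values that passed only when the culture media batch entered the fit. Abcg1 had 3.26, 4.42 and 3.94 CPM in Bap1KO, against 1.60, 2.87 and 2.46 CPM in WT. All Bap1KO libraries were higher, with a log2 fold change of 0.75 ± 0.340 (adjusted p = 0.187, edgeR). Abca1 had 22.3, 14.7 and 26.4 CPM in Bap1KO and 13.3, 14.5 and 21.4 CPM in WT, with overlap. The receptors pointed in different directions. Nr1h2 had 74.8, 76.6 and 88.0 CPM in Bap1KO and 61.5, 71.5 and 69.5 CPM in WT, and Nr1h3 had 2.22, 2.18 and 1.94 CPM in Bap1KO and 3.21, 4.97 and 2.86 CPM in WT. None of the 4 passed in edgeR without the batch, where 3 had an unadjusted p under 0.05; DESeq2 called Nr1h3 alone. With the batch as replicate block all 4 passed, Abcg1, Nr1h2 and Abca1 higher and Nr1h3 lower, with the values given next.

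Bap1KO and WT libraries of the same number shared a culture media batch (A, B and C). Within the batches the median log2 ratio of Bap1KO over WT was −0.34, −0.35 and −0.55 for synthesis enzymes, and 0.52, 0.06 and 0.32 for LXR and efflux genes. Of the enzymes, 17 of 19 were lower in Bap1KO in all 3 batches; Ggps1 was higher in all 3. With the batch as replicate block, 19 of the 33 genes fell and 4 rose, against 17.2% and 12.1% of all genes, so 23 were called in place of 8. All 7 falling enzymes kept their call, and Cyp51 had the lowest unadjusted p of the 33 genes (4.71e-09, edgeR with the block). Libraries were left out in turn only in fits without the block. The genes that fell under the block alone included Insig1 (adjusted p = 6.47e-05), Stard4 (6.32e-05), Msmo1 (0.000189), Hmgcs1 (0.00343), Acat2 (0.00497), Mvk (0.00815), Mylip (0.0095), Nr1h3 (0.0197) and Srebf2 (0.0313), beside Lss, Nsdhl and Sc5d. Abcg1 (0.00114), Nr1h2 (0.00974) and Abca1 (0.0486) rose under the block. DESeq2 called 13 of the 33 genes, against 15.6% of all genes.

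**Figure D2:**
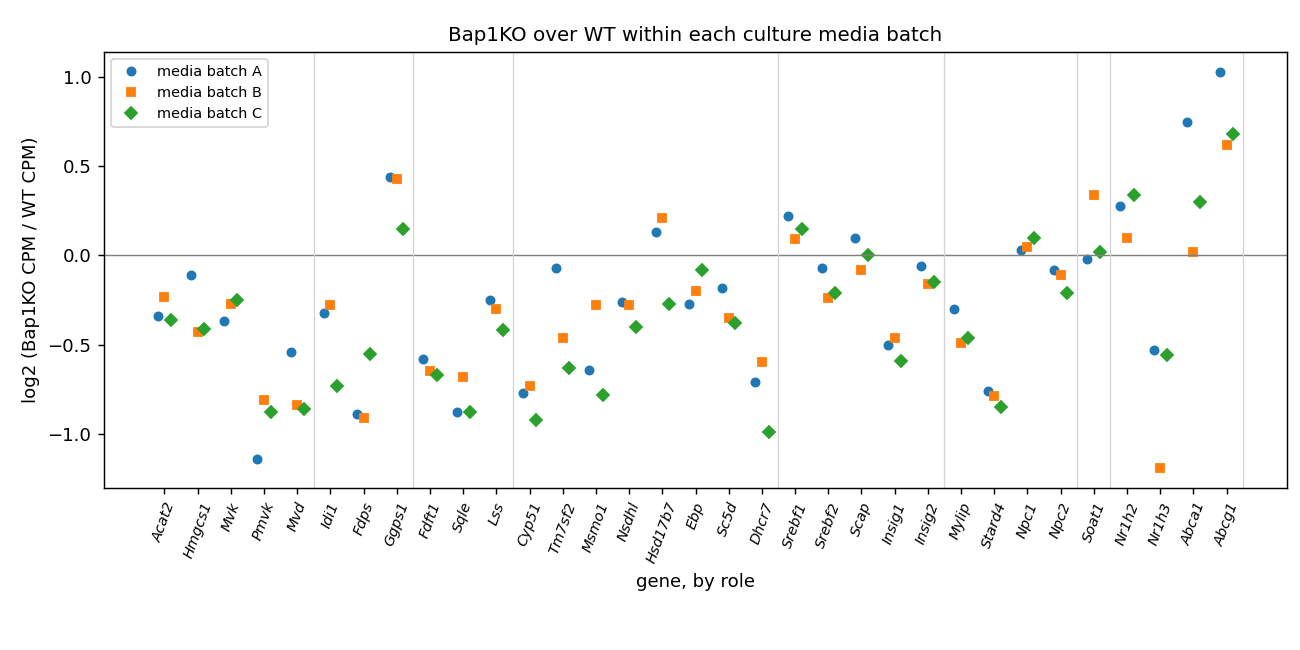
Log2 of Bap1KO over WT CPM (vertical) for each of the 33 genes (across, by role) within the 3 culture media batches (symbols). Points of 17 of the 19 synthesis enzymes lie below 0 in every batch, and all 3 points of Abcg1, Abca1 and Nr1h2 lie above it.

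Other genes of the pathway were read from lists of related genes, compared for Bap1KO against WT. Of all genes tested, 6.37% fell and 3.42% rose in this comparison, and the single calls in short lists are not set apart from those shares. Of 14 tested genes of fatty acid synthesis under SREBP-1, 3 fell and none rose: the desaturases Fads1 (log2 fold change −0.85, adjusted p = 0.00355) and Fads2 (−1.03, 0.0141) and the elongase Elovl6 (−0.86, 0.0109). Of 10 lipoprotein uptake genes 4 fell, among them the endocytic adaptor Dab2 (−0.88, 0.00562), the lysosomal protein Scarb2 (−0.44, 0.0286), and Olr1, a receptor for oxidized lipoprotein (−0.96, 0.0372). Of 12 genes of SREBP processing and enzyme turnover 2 rose, Erlin1 (0.50, 0.00346) and Rnf145 (0.24, 0.0436). Of 8 other LXR targets 1 fell, Smpdl3a (−1.14, 0.000764), and of 6 oxysterol enzymes 1 fell, the sterol 27-hydroxylase Cyp27a1 (−1.43, 0.0311). In ester storage 1 of 6 fell, the lysosomal lipase Lipa (−0.32, 0.0164). Of 16 sterol transport genes Osbpl5 rose (0.39, 0.00983) and Gramd1b fell (−0.56, 0.0445), and of 14 genes of isoprenoid use none passed in edgeR, where 2 had an unadjusted p under 0.05; DESeq2 called 1. With the batch as replicate block, against 17.2% lower and 12.1% higher of all genes, 8 of the fatty acid genes, 5 of lipoprotein uptake, 3 of the other LXR targets, 3 of sterol transport, 2 of ester storage, 2 of the oxysterol enzymes and 2 of isoprenoid use fell. There 4 genes of SREBP processing and 1 each of uptake, LXR targets, sterol transport and ester storage rose. All p-values are edgeR's without the block, adjusted over all genes.

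Both SMN groups, which also received 4-OHT, had lower levels of most mevalonate enzymes and SREBP regulators than Bap1KO. In Smn1OE against Bap1KO, 17 of the 33 genes fell and 1 rose, against 33.2% of all genes called, with 17.5% lower and 15.7% higher. In Smn1OE_K186R against Bap1KO, 16 fell and 2 rose, against 32.2% called, with 16.3% lower and 15.9% higher. The synthesis enzymes had a median log2 fold change of −0.39 in Smn1OE, with 11 of 19 lower, and −0.41 in Smn1OE_K186R, with 11 lower and 1 higher, against −0.01 for all genes in both. All 3 Smn1OE_K186R libraries lay below all Bap1KO libraries for 16 of the 33 genes and above them for 3, against 22.0% and 21.7% of all genes; for Smn1OE these were 17 and 2, against 24.7% and 24.0%. The same 14 genes fell in both groups and Npc1 rose in both; the comparisons share the Bap1KO libraries. Of all calls, 49.4% were higher in Smn1OE_K186R and 47.3% in Smn1OE; scaled by library totals alone these shares were 62.3% in Smn1OE_K186R and 61.3% in Smn1OE, and 14 of the 33 genes were called in Smn1OE_K186R and 13 in Smn1OE.

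Tm7sf2, a sterol reductase of the late pathway, had 3.52, 2.70 and 2.96 CPM in Smn1OE_K186R and 2.95, 2.89 and 2.25 CPM in Smn1OE, against 6.82, 5.32 and 4.94 CPM in Bap1KO. It fell by 0.90 in Smn1OE_K186R and by 1.07 in Smn1OE on the log2 scale (adjusted p = 0.0029 and 0.0011, edgeR), with no overlap. Its exons overlap Vps51, which is counted more often, on the same strand. Mvk, the mevalonate kinase whose window is printed above, had 17.0, 16.0 and 16.5 CPM in Smn1OE_K186R and 16.2, 18.6 and 17.3 CPM in Smn1OE, against 29.3, 27.6 and 25.9 CPM in Bap1KO. It fell by 0.74 and 0.67 (adjusted p = 0.000367 and 0.000557, edgeR). Mvd had 9.32, 8.37 and 9.07 CPM in Smn1OE_K186R and 8.54, 9.64 and 9.07 CPM in Smn1OE, all below its Bap1KO values, and fell by 0.75 and 0.73 (adjusted p = 0.00141 and 0.0015, edgeR). Pmvk had 5.35, 4.77 and 5.44 CPM in Smn1OE_K186R and 4.42, 5.46 and 5.04 CPM in Smn1OE and fell by 0.63 and 0.69. The 3 enzymes of mevalonate phosphorylation and decarboxylation were thus low together in all 6 SMN libraries.

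Sqle had 23.0, 31.2 and 27.6 CPM in Smn1OE_K186R and 24.8, 31.6 and 25.7 CPM in Smn1OE, and Cyp51 had 28.8, 39.2 and 30.1 CPM in Smn1OE_K186R and 26.3, 40.6 and 30.0 CPM in Smn1OE. Both lay below all Bap1KO libraries in both groups, with log2 fold changes of −0.46 to −0.59. Dhcr7 had 8.41, 9.33 and 7.27 CPM in Smn1OE_K186R and 8.59, 9.20 and 6.97 CPM in Smn1OE. Fdps, with 2.87, 2.01 and 3.05 CPM in Smn1OE_K186R and 2.59, 3.21 and 3.56 CPM in Smn1OE, was called lower only in Smn1OE_K186R against Bap1KO (−0.62, adjusted p = 0.0433, edgeR), and the SMN groups themselves did not differ in it beyond their spread. Fdft1, with 33.3, 33.8 and 38.6 CPM in Smn1OE_K186R and 33.8, 40.1 and 36.8 CPM in Smn1OE, was not called against Bap1KO in either. Ggps1 again ran the other way, with 52.8, 57.9 and 54.1 CPM in Smn1OE_K186R and 49.5, 55.9 and 53.3 CPM in Smn1OE, uncalled against Bap1KO.

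Of the 5 SREBP regulators 4 fell in both SMN groups. Srebf2 had 66.7, 81.6 and 69.7 CPM in Smn1OE_K186R and 66.9, 80.1 and 69.2 CPM in Smn1OE, below every Bap1KO library, with log2 fold changes of −0.49 and −0.50 (adjusted p = 0.0117 and 0.0101, edgeR). Srebf1, which was not lower in Bap1KO than in WT and whose exons overlap Rai1 on the opposite strand, had 67.6, 62.6 and 63.3 CPM in Smn1OE_K186R and 64.9, 63.4 and 61.8 CPM in Smn1OE, and fell by 0.39 and 0.42. Insig1 had 19.1, 24.6 and 20.7 CPM in Smn1OE_K186R and 19, 22.6 and 19.2 CPM in Smn1OE, and fell by 0.48 and 0.56. Insig2 had 35.5, 37.5 and 31.9 CPM in Smn1OE_K186R and 30.3, 34.2 and 26.1 CPM in Smn1OE, and fell by 0.28 and 0.49. Scap, with 95.2, 86.1 and 70.2 CPM in Smn1OE_K186R and 91.9, 82.7 and 68.6 CPM in Smn1OE, did not pass.

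Efflux and transport genes split in the SMN groups. Abcg1 had 6.99, 4.80 and 9.45 CPM in Smn1OE_K186R and 6.97, 3.61 and 9.05 CPM in Smn1OE, with log2 fold changes over Bap1KO of 0.87 and 0.75 (adjusted p = 0.0642 and 0.0995, edgeR). Abca1 ran the other way, with 16.1, 15.7 and 9.51 CPM in Smn1OE_K186R and 13.4, 9.13 and 5.98 CPM in Smn1OE. It fell in Smn1OE (−1.15 ± 0.329, adjusted p = 0.0223), while in Smn1OE_K186R its value of −0.62 did not pass (0.166). Nr1h3 had 1.41, 0.945 and 0.640 CPM in Smn1OE_K186R and 1.33, 1.36 and 1.53 CPM in Smn1OE. It was called lower in Smn1OE_K186R (−1.07, adjusted p = 0.0142, edgeR), where library 3 held 34 of its reads. In Smn1OE it was not called, although all libraries of both SMN groups lay below all Bap1KO libraries. Nr1h2, with 86.5, 67.4 and 84.3 CPM in Smn1OE_K186R and 92.2, 75.4 and 86.0 CPM in Smn1OE, overlapped Bap1KO. The efflux genes therefore did not share a direction, with medians of −0.31 in Smn1OE_K186R and −0.25 in Smn1OE.

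Npc1 had 48.2, 54.8 and 46.9 CPM in Smn1OE_K186R and 51.1, 45.9 and 52.6 CPM in Smn1OE, all above Bap1KO, and rose by 0.32 and 0.31 (adjusted p = 0.0176 and 0.0182, edgeR). Its exons overlap Rmc1 on the opposite strand. Npc2 had 507, 382 and 521 CPM in Smn1OE_K186R and 521, 492 and 549 CPM in Smn1OE, and Soat1 had 205, 262 and 203 CPM in Smn1OE_K186R and 201, 243 and 196 CPM in Smn1OE; neither was called. Mylip had 6.17, 7.68 and 5.85 CPM in Smn1OE_K186R and 4.83, 7.59 and 5.77 CPM in Smn1OE and fell in Smn1OE (−0.56, 0.0427). Stard4 had 5.25, 10.2 and 5.95 CPM in Smn1OE_K186R and 5.20, 7.35 and 5.05 CPM in Smn1OE and was not called. Of the 18 calls in each comparison, 8 stayed whichever library was left out. In both these were Mvk, Pmvk, Mvd, Tm7sf2, Nsdhl, Srebf1 and Srebf2, with Nr1h3 in Smn1OE_K186R and Insig2 in Smn1OE. The other 10 in each, among them Sqle, Cyp51, Dhcr7, Insig1, Npc1 and, in Smn1OE, Abca1 and Mylip, were lost without at least 1 library, with adjusted p up to 0.179 in Smn1OE_K186R and 0.163 in Smn1OE, and each of the 6 libraries in a comparison cost at least 1 call when left out. Without Bap1KO library 1, which had the highest enzyme levels of its group, 8 of the 33 genes were called in each; without library 1 of Smn1OE or of Smn1OE_K186R 10 were called, and without Smn1OE library 3 there were 8. When the batch entered as a random effect, the calls of Fdps (adjusted p = 0.0555, limma) and Hsd17b7 (0.0693) in Smn1OE_K186R were lost. Ebp and Nsdhl, both lower in both groups, lie on the X chromosome, on which the SMN groups and Bap1KO differed in Xist.

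**Figure D3:**
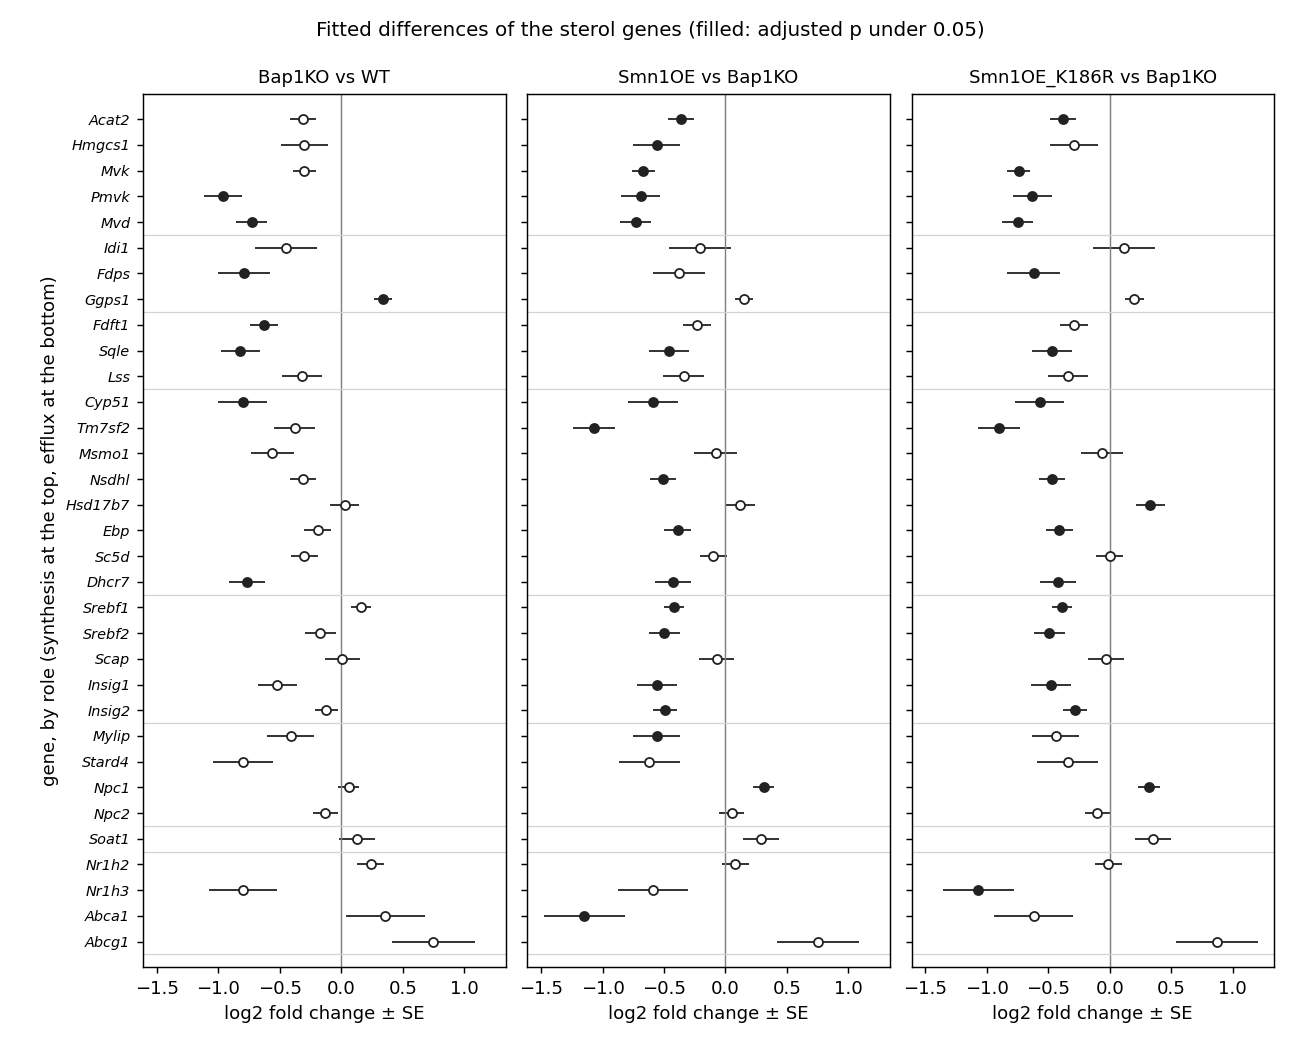
Log2 fold change ± SE (across) of the 33 genes (down, by role) in Bap1KO against WT and in each SMN group against Bap1KO; filled points have an adjusted p under 0.05. Filled points lie left of 0 for 7 of 19 synthesis enzymes in Bap1KO against WT and for 11 of 19 in each SMN panel; Ggps1 in the first panel, Npc1 in the other panels and Hsd17b7 in Smn1OE_K186R lie right of it.

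No gene of the 33 was called between Smn1OE_K186R and Smn1OE, against 0.0% of all genes. Insig2 alone had an unadjusted p under 0.05 in edgeR, as did 374 of all genes; DESeq2 called 0, with 0 of the 33 at an unadjusted p under 0.05. With the batch (D, E and F) as replicate block 0 of the 33 were called, against 0.235% of all genes, and 6 had an unadjusted p under 0.05, the lowest being Abca1 at 0.000832. All 33 genes overlapped between the groups, whereas 3.28% of all genes lay wholly higher and 3.5% wholly lower. The synthesis enzymes had a median difference of 0.02, and within the batches 0.04, −0.05 and 0.10. Abca1 had the largest positive fitted difference, 0.53 ± 0.327, and Nr1h3 the most negative, −0.49 ± 0.289. A missed threshold does not show that the forms act alike.

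Against WT, the SMN groups had the widest differences. In Smn1OE_K186R 23 of the 33 genes fell and 5 rose, against 50.3% of all genes called, 26.4% lower and 23.9% higher; in Smn1OE 24 fell and 5 rose, against 50.2%, 26.5% lower and 23.7% higher. In each SMN group 24 of the 33 genes lay wholly below WT and 5 wholly above, against 30.9% and 27.5% of all genes in Smn1OE_K186R and 32.7% and 29.7% in Smn1OE. Synthesis enzymes had medians of −0.78 and −0.86, with 16 and 17 of 19 lower. Pmvk differed by −1.58 in Smn1OE_K186R and −1.64 in Smn1OE, and Mvd by −1.49 and −1.46. Sqle and Cyp51 differed by −1.29 and −1.37 in Smn1OE_K186R and by −1.28 and −1.39 in Smn1OE. Abcg1 rose by 1.61 and 1.5 (adjusted p = 0.00213 and 0.00329, edgeR), whereas Abca1 was not called in either. Genes called higher in both SMN groups were Ggps1, Abcg1, Npc1 and Soat1. Soat1 was lost without Smn1OE_K186R library 2, Smn1OE library 2 or WT library 1, and in Smn1OE also without WT library 2, with adjusted p up to 0.0781 in Smn1OE_K186R and 0.127 in Smn1OE. Of the calls against WT, 23 of 28 in Smn1OE_K186R and 25 of 29 in Smn1OE stayed whichever library was left out. These comparisons share the WT libraries with that of Bap1KO.

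Libraries within a group also differed in a shared way, described here after the values were seen. Summed over the 19 enzymes, Smn1OE_K186R had 418, 485 and 435 CPM, Smn1OE 403, 474 and 404 CPM, Bap1KO 596, 497 and 476 CPM, and WT 787, 636 and 681 CPM. In each group the library with the highest sum also had the highest Insig1 and the lowest Abcg1: library 1 in Bap1KO and WT (batch A) and library 2 in both SMN groups (batch E). That library was highest for 10 of the 19 enzymes in Smn1OE_K186R, 16 in Smn1OE, 18 in Bap1KO and 15 in WT. Groups that share a batch are not independent repeats of this order. A list of 18 cell cycle genes was highest in the same libraries, with 482, 689 and 497 CPM in Smn1OE_K186R, 462, 660 and 479 CPM in Smn1OE, 1050, 801 and 808 CPM in Bap1KO, and 1410, 1090 and 1110 CPM in WT. Of those 18 genes, 10 were called lower in Smn1OE_K186R against Bap1KO and 12 in Smn1OE, against 16.3% and 17.5% of all genes. In Bap1KO against WT 0 were called by edgeR without the block, where 5 had an unadjusted p under 0.05, 3 by DESeq2 and 18 with the block, all lower, against 17.2% of all genes, and their median log2 fold change was −0.57. The part of cell cycle genes, and of the FAP markers, in the sterol result was not tested.

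**Figure D4:**
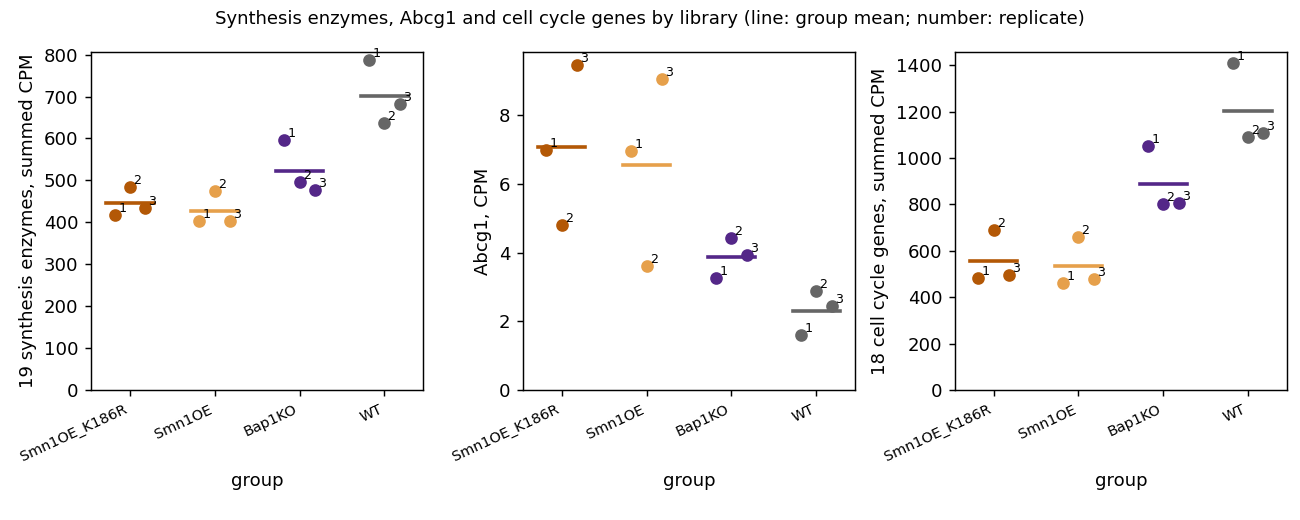
CPM in each library (points numbered by replicate; lines are group means) of the 19 synthesis enzymes summed, of Abcg1, and of 18 cell cycle genes summed, by group. Mean enzyme sums are lower in both SMN groups than in Bap1KO, and lower in Bap1KO than in WT; in every group the library with the highest enzyme sum has the lowest Abcg1 and the highest cell cycle sum.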

How the data were processed

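RNA-seq libraries from 12 cultures, 3 in each of 4 groups taken from the genotype and treatment labels, were deposited as raw read counts per Ensembl gene ID, made by the authors with no further normalization. Per the submitters' processing notes, reads came from CASAVA 1.8.2, and STAR 2.6.1, cutadapt 1.4.2, DESeq2 and HTSeq 0.9.1 are also named, with build GRCm39; annotation release and strand setting are not given in the sources used here. The 5 closing lines that name no gene held 11.1 to 14.6% of records and were left out. Symbols and exon lengths came from GENCODE M21, which named 55154 of 55335 IDs; promoter windows came from RefSeq (GRCm38.p6), and no coordinates were converted.

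The 33 genes and all lists were chosen with earlier results of these data known, and no set test was run. The test was edgeR 4.0.16 under R 4.3.3 (normalization by TMM, filterByExpr with a minimum count of 10, quasi-likelihood fit of 4 groups over 12 libraries with 8 residual degrees of freedom, 2-sided, Benjamini-Hochberg over 16597 genes, called under 0.05). CPM are TMM-scaled. The script was tested on simulated data. The common biological coefficient of variation was 0.179. Chi-square values over their degrees of freedom were 37.2 to 122.1 between replicates, so over all genes together replicate spread exceeded counting noise. For genes with few reads, such as Nr1h3 with 34 in Smn1OE_K186R library 3, depth also limits precision.

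The labels give libraries of the same number the same culture media batch between Bap1KO and WT, and between the SMN groups. Deviations from group means correlated by 0.24 to 0.435 for each same-batch pair of Bap1KO and WT and by 0.302 to 0.431 for those of the SMN groups, and by at most 0.049 for other pairs, so the batch pairs the libraries. Alternatives were DESeq2 1.42.0, RLE size factors, library totals, no filter, only the groups compared, the batch as replicate block or, across batches, as a random effect (limma 3.58.1, correlation 0.45), and leaving out each library. Values per library are given for regulators, efflux and transport genes, for enzymes called in Bap1KO against WT and for up to 5 enzymes with the largest change elsewhere; from each other list at most 4 genes are named, by smallest p, and 1 gene that this rule names is not reported here.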

Additional observations from a re-analysis of the deposited data

How the results depend on the processing

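Of 1980 alternative values for 165 results, 1741 were scored as unchanged. For single genes this meant the same direction and the same side of the threshold. Counts of calls had to stay within a fixed ratio of the main count. Medians had to stay within the SD between libraries of a group, whatever their sign. The LXR and efflux median in Smn1OE_K186R against WT, for example, ran from −0.11 to 0.12 when 1 library was left out. In Bap1KO against WT, 23 of the 33 genes were called with the culture media batch as replicate block and 13 by DESeq2, in place of 8; leaving out 1 library gave 5 to 11, with 5 without Bap1KO library 2, Bap1KO library 3 or WT library 1. Leaving out 1 library gave 8 to 19 calls in Smn1OE against Bap1KO and 8 to 18 in Smn1OE_K186R against Bap1KO, and an LXR and efflux median of 0.17 to 0.45 in Bap1KO against WT. Between the SMN groups the block changed no call of the 33 genes, while it called 0.235% of all genes. No block could be fitted for SMN groups against Bap1KO or WT, which share no batch.

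Signs turned for genes near 0. Leaving out 1 library gave Scap −0.10 to 0.13 and Soat1 −0.04 to 0.27 in Bap1KO against WT. Against Bap1KO it gave Scap −0.13 to 0.08, Nr1h2 −0.08 to 0.10 and Npc2 −0.18 to 0.03 in Smn1OE_K186R, and Scap −0.18 to 0.03 in Smn1OE. Against WT it gave Scap −0.12 to 0.09 in Smn1OE_K186R and −0.17 to 0.05 in Smn1OE. Library totals put the median of all genes at 0.072 in both SMN groups against Bap1KO, in place of −0.006 in Smn1OE_K186R and −0.009 in Smn1OE, and at 0.075 and 0.077 against WT, in place of −0.019 and −0.021, a shift that turns the sign of genes near 0. Under library totals Scap was 0.05 in Smn1OE_K186R and 0.01 in Smn1OE against Bap1KO, and 0.08 and 0.03 against WT, Nr1h2 in Smn1OE_K186R against Bap1KO was 0.07, and Npc2 in Smn1OE against WT was 0.02. RLE and DESeq2 gave 0.01 for that Nr1h2 value and 0.02 for Scap in Smn1OE_K186R against WT. The cause of the turns without a library was not tested.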

Other observations

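Lipid genes outside the 33 also differed between the SMN groups and Bap1KO. Of all genes tested, 15.9% rose and 16.3% fell in Smn1OE_K186R, and 15.7% rose and 17.5% fell in Smn1OE. The counts of each list are read against these shares, some lie near them, and no list was tested as a set. In ester storage Plin2, the coat protein of lipid droplets, rose by 1.34 on the log2 scale in Smn1OE_K186R and 1.53 in Smn1OE (adjusted p = 0.00428 and 0.00215, edgeR), and Soat2, a cholesterol esterifying enzyme, by 0.99 and 1.22 (0.0145 and 0.00487), while Plin3 fell by 0.36 and 0.40. In all, 2 of 6 rose and 1 fell in Smn1OE_K186R, and 3 rose and 2 fell in Smn1OE. Of 14 fatty acid genes, 2 rose and 4 fell in Smn1OE_K186R, and 4 rose and 4 fell in Smn1OE; the desaturases Scd1 (−0.94 and −1.28), Scd2 (−0.68 and −0.86), Fads1 (−0.55 and −0.55) and Fads2 (−0.96 and −0.87) fell in both. Lpin1, a phosphatidate phosphatase, rose by 0.94 and 0.99.

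Of 8 other LXR targets 3 fell and 1 rose in each SMN group. Those that fell were Lpcat3, which remodels phospholipids (−0.68 and −0.79), Lpl, the lipoprotein lipase (−1.64 and −1.82), and Scd1. Scd1 is in both lists and is also counted among the fatty acid genes above. Of 16 sterol transport genes 3 rose and 2 fell in Smn1OE_K186R, and 4 rose and 3 fell in Smn1OE, with Gramd1c at 1.28 and 1.95 and Scp2 at −0.62 and −0.79. Of 12 SREBP processing genes 2 rose and 1 fell in Smn1OE_K186R, and 1 rose and 3 fell in Smn1OE; Mbtps1, the site-1 protease that cuts SREBP, fell in both (−0.54 and −0.66), Sec24a, a coat protein of vesicles leaving the endoplasmic reticulum, rose in both (0.69 and 0.47), and Mbtps2, the site-2 protease that cuts SREBP after it, rose in Smn1OE_K186R (0.38, adjusted p = 0.0449, edgeR). Lipoprotein uptake had 1 rise and 2 falls of 10 in each, isoprenoid use 2 rises and 5 falls of 14 in Smn1OE_K186R and 3 and 3 in Smn1OE, and oxysterol enzymes 1 rise and 1 fall of 6 in Smn1OE_K186R and 0 by edgeR in Smn1OE, where 5 had an unadjusted p under 0.05 and DESeq2 called 3. These values carry the same limits of vector, batch and sex of the cells as those of the 33 genes.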
